A study of Mus musculus with 6 samples.

Results

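The transcription factor genes *Tbx18*, *Tbx2*, *Tbx3*, *Tshz2*, *Tshz3*, *Sox9*, *Tcf21* and *Gata6* are known for their expression in the mesenchyme of the embryonic ureter. They were chosen by name and found by symbol, and make up 8 of the 56748 genes in the deposited count table. All 8 passed the filter on low counts. They were followed in ureter explants of NMRI wildtype mouse embryos at E12.5, which were kept for 18 h on transwell membranes in DMEM/F12 medium with GlutaMAX, penicillin and streptomycin, non-essential amino acids and pyruvate. In 3 samples the medium held 15 mM LiCl, an inhibitor of the kinase GSK3B that is used to activate canonical WNT signaling, and 3 samples received water as control. PolyA-selected RNA of each sample was sequenced, and both compartments of the ureter contribute to every library. LiCl reaches all cells of the explant, so the design does not separate responses of the epithelium from those of the mesenchyme.

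The ureter starts as an epithelial tube surrounded by loose mesenchyme. The inner mesenchymal cells become smooth muscle, the outer ones become fibrocytes of the adventitia, and both fates depend on signals exchanged with the epithelium, among them SHH and WNT ligands from the epithelium and BMP4 from the mesenchyme. Mesenchymal transcription factors translate these signals: TBX18 sets the mesenchyme apart from that of the kidney and makes it competent to respond, the related repressors TBX2 and TBX3 act within the same T-box family, and SOX9 and TSHZ3 are known to act on the timing of smooth muscle differentiation through MYOCD.

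The libraries held 28473436 to 31266945 counts, with overlapping totals between the groups. The TMM scaling factors did not overlap, at 0.999 to 1.025 in the controls and 0.982 to 0.995 with LiCl. Counts of the 8 genes ran from 2500 for *Gata6* in LiCl replicate 2 to 11427 for *Tbx18* in control replicate 1. Their mean CPM (the count of a gene in proportion to the TMM-scaled library total) lay between the 85.7 and 97.8 percentiles of the 18188 genes tested. Markers of both compartments of the labelled tissue were present: 12 general mesenchyme markers summed to 3284 to 3569 CPM in the controls and 2733 to 2938 CPM with LiCl, and 12 ureter epithelium markers summed to 1372 to 1704 CPM and 1049 to 1099 CPM. Skeletal muscle markers set LiCl replicates 1 and 3 apart, at 32.0 and 66.5 CPM over 10 genes, against 7.20 CPM in LiCl replicate 2 and 5.29 to 6.70 CPM in the controls. Counts with and without these libraries are given below. The labels do not say whether the samples came from separate cultures or pools of embryos, so the p-values measure the spread between these samples, which may be technical.

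The sequence just upstream of the start site was taken from RefSeq (GRCm38.p6) for 4 of the 8 genes. They include the gene with the largest change, both *Tshz* genes, of which *Tshz2* was called and *Tshz3* was not, and the gene with the highest level. Each run holds the 250 bases before the start, 5′ to 3′ on the gene's strand, with motif matches in capitals. *Tbx18* lies on the minus strand at chr9:87731261-87731510, *Tshz2* on the plus strand at chr2:169632259-169632508, *Tshz3* on the plus strand at chr7:36697868-36698117, and *Tcf21* on the minus strand at chr10:22820144-22820393.
Tbx18: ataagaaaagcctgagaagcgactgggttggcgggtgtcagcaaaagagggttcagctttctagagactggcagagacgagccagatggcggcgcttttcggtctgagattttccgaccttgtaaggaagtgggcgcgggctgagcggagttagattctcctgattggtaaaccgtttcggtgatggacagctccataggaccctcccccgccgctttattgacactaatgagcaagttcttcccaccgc
Tshz2: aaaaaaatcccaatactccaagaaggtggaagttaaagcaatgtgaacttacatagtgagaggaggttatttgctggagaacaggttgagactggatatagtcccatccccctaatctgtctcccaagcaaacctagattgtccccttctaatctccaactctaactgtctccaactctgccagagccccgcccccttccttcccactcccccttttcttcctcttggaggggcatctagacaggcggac
Tshz3: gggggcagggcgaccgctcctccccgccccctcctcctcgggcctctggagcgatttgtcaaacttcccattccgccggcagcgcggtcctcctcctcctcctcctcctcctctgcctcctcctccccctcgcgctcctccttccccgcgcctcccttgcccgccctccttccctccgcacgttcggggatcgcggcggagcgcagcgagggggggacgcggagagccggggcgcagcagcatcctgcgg
Tcf21: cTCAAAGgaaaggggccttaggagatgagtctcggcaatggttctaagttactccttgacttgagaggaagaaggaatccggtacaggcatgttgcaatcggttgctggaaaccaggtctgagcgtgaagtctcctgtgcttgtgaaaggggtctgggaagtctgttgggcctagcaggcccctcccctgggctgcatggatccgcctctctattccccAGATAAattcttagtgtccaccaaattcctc
The GC content was 54% for *Tbx18*, 48.8% for *Tshz2*, 74% for *Tshz3* and 52.4% for *Tcf21*. Both strands were searched for 4 motifs: CTTTGA, the core of the sequence that the WNT effectors of the TCF and LEF family recognise, AGATAA for GATA factors, GGTGTGA for T-box factors, and CACGTG, an E-box. *Tcf21* held CTTTGA, read on the opposite strand as TCAAAG, and AGATAA on its own strand. The windows of *Tbx18*, *Tshz2* and *Tshz3* held none of the 4, which says only that these letters are not in these bases. Of 32817 mouse promoter windows of the same length, 13.8% held CTTTGA, 9.99% AGATAA, 3.33% GGTGTGA and 6.02% CACGTG. No sequence was at hand for *Tbx2*, *Tbx3* and *Sox9*, and *Gata6* was left out of this step, so these genes are named only.

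LiCl moved 7 of the 8 genes past an adjusted p of 0.05 in edgeR's quasi-likelihood test with Benjamini-Hochberg adjustment. *Tbx18*, *Tshz2*, *Sox9*, *Tcf21* and *Gata6* fell, *Tbx2* and *Tbx3* rose, and *Tshz3* did not pass. *Tbx18* fell by 33.1%, the other 4 lower genes by 14.1% to 18.0%, and *Tbx2* and *Tbx3* were 20.3% and 9.35% higher. The treatment moved much of the transcriptome, as 43.5% of all tested genes passed the same test, 21.1% higher and 22.4% lower. Among the 2753 tested genes that averaged 100 CPM or more, a limit chosen after the data were seen, 53.1% passed, 34.5% higher and 18.6% lower. For 7 of the 8 genes, 2 higher and 5 lower, no LiCl sample overlapped a control, and 54.2% of all tested genes were separated in this way, 26.4% higher and 27.8% lower. The 8 genes had a median log2 fold change of -0.23, against -0.01 for all tested genes. At the study's thresholds, which add a log2 fold change above 1 or below -1, 0 of the 8 genes were called, where 7.33% of all tested genes were, 2.74% higher and 4.59% lower. Without LiCl replicates 1 and 3, an alternative added after seeing the data that leaves 1 LiCl library, 1 gene was higher and 3 lower, where 10.4% of all genes tested in that fit were higher and 10.9% lower. The spread in that fit comes from the controls alone, and the lone LiCl library is assumed to vary like them. In whole explants, fewer cells that express a gene and less RNA per cell cannot be told apart.

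**Figure D1:**
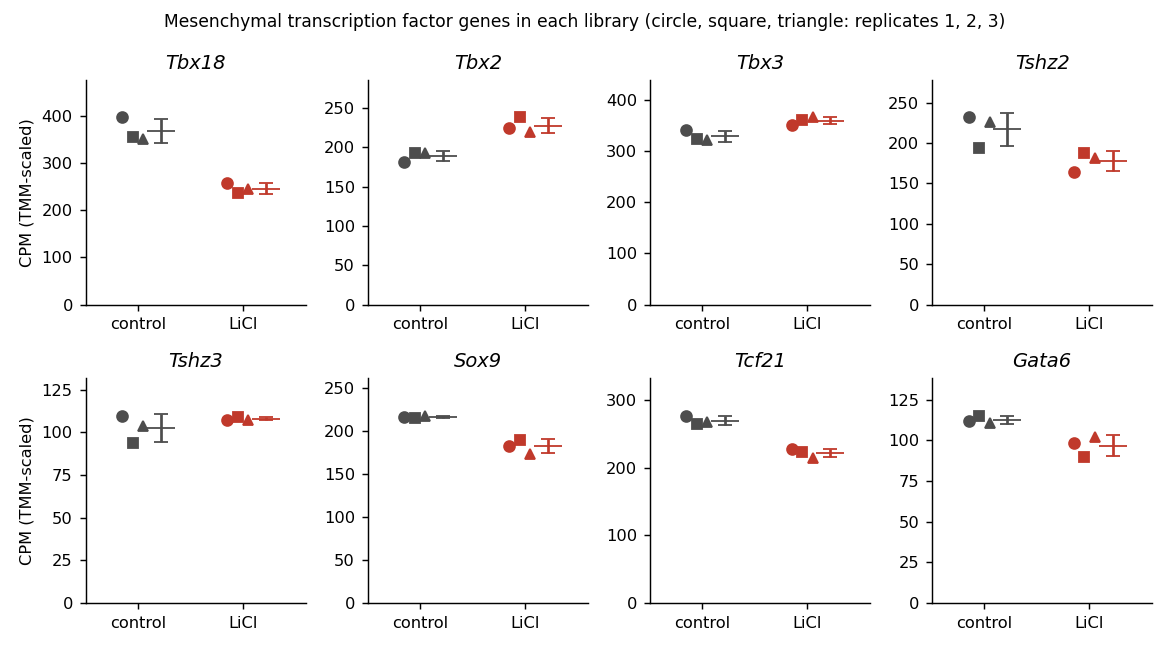
CPM of the 8 genes in each library (circle, square and triangle for replicates 1, 2 and 3; bars show the mean ± SD, n = 3), control in grey and LiCl in red, with every axis starting at 0. The LiCl samples lie below all controls for *Tbx18*, *Tshz2*, *Sox9*, *Tcf21* and *Gata6*, above them for *Tbx2* and *Tbx3*, and among them for *Tshz3*.

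*Tbx18* (ENSMUSG00000032419) encodes the T-box repressor that marks the ureteric mesenchyme from its origin, and its loss is known to leave the ureter without smooth muscle. It had 397, 356 and 351 CPM in control replicates 1 to 3 and 258, 236 and 245 CPM in LiCl replicates 1 to 3. Every LiCl sample lay far below every control, and the gap between the groups exceeded the range within either. The mean went from 368 ± 25.4 to 246 ± 10.7 CPM (SD, n = 3, log2 fold change -0.58, SE 0.06, 95% interval -0.71 to -0.45, adjusted p = 7.7e-05). SE is the standard error of the log2 fold change. This was the largest change of the 8 genes, and it ranked at the 13.1 percentile of all tested genes from the lowest log2 fold change. Over 15 alternatives it stayed between -0.63 and -0.52, with an adjusted p of at most 0.0019.

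*Tbx2* (ENSMUSG00000000093) and *Tbx3* (ENSMUSG00000018604) encode closely related T-box repressors, which hold back cell cycle inhibitor genes in several embryonic tissues. *Tbx2* had 182, 193 and 192 CPM in the controls and 224, 238 and 219.5 CPM with LiCl. All LiCl samples were above all controls. The mean rose from 189 ± 6.35 to 227 ± 9.67 CPM (SD, n = 3, log2 fold change 0.27, SE 0.05, adjusted p = 0.0022). *Tbx3* had 341, 324 and 322 CPM in the controls and 352, 361 and 367 CPM with LiCl. Here the highest control came close to the lowest LiCl sample. The mean went from 329 ± 10.5 to 359.8 ± 7.35 CPM (SD, n = 3, log2 fold change 0.13, SE 0.04, adjusted p = 0.038). *Tbx3* passed narrowly and kept an adjusted p under 0.05 in 8 of 15 alternatives. It lost it without control replicate 2 (0.067), without control replicate 3 (0.12), without LiCl replicate 2 (0.078), without LiCl replicate 3 (0.11) and with scaling by library size only (0.11), with the replicate block (0.088) and without LiCl replicates 1 and 3 (0.19), and the range over the alternatives was 0.017 to 0.19. *Tbx2* kept it in all 15.

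The balance of the 3 T-box genes was read within single libraries. The log2 ratio of *Tbx18* to *Tbx2* counts was 1.13, 0.88 and 0.87 in the controls and 0.20, -0.01 and 0.16 with LiCl, a difference of -0.85 (SE 0.11). The log2 ratio of *Tbx18* to *Tbx3* went from 0.16 ± 0.05 to -0.55 ± 0.09 (SD, n = 3). In every control *Tbx18* had more counts than *Tbx3*, and in every LiCl library it had fewer. These ratios need no scaling between libraries. The log2 ratio of *Tbx2* to *Tbx3* was -0.80 ± 0.09 in the controls and -0.66 ± 0.07 with LiCl (SD, n = 3), and control replicate 3 and LiCl replicate 3 both stood at -0.74. For each of the 7 ratios examined the groups did not overlap. The two-sided exact permutation test gave p = 0.1, the smallest that 3 against 3 samples allow, and 0.1 after adjustment over the 7. Of single tested genes, 54.2% were separated between the groups, and the share among other gene pairs was not computed. Several of the 7 pairs share *Tbx18*, so the ratios partly restate the changes of the single genes.

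**Figure D2:**
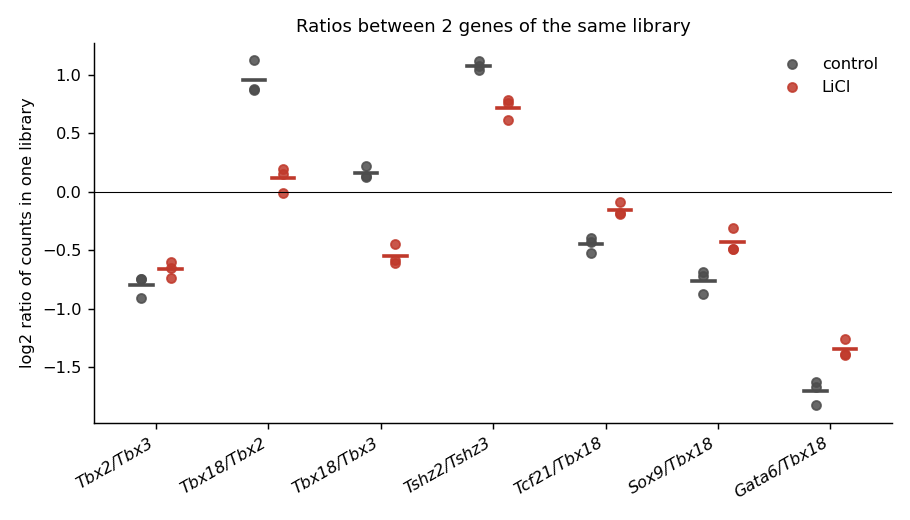
Log2 ratio of the counts of 2 genes in the same library, for 7 pairs, with 1 point per library and a line at the group mean (control in grey, LiCl in red). The mean ratio of *Tbx18* to *Tbx2* was 0.96 in the controls and 0.11 with LiCl, and that of *Tbx18* to *Tbx3* was 0.16 and -0.55. Counts are not divided by gene length, so a ratio above or below 0 does not rank 2 genes.

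*Tshz3* (ENSMUSG00000021217) encodes a teashirt zinc finger factor that the smooth muscle of the proximal ureter needs, and *Tshz2* (ENSMUSG00000047907) a close relative. *Tshz2* had 232, 193 and 226 CPM in the controls and 164, 188 and 182 CPM with LiCl. Control replicate 2 was only slightly above LiCl replicate 2, and the other LiCl samples lay further below the controls. The mean fell from 217 ± 20.8 to 178 ± 12.2 CPM (SD, n = 3, log2 fold change -0.29, SE 0.08, adjusted p = 0.015). The adjusted p was 0.052 without control replicate 1, 0.062 without control replicate 3 and 0.22 without LiCl replicates 1 and 3. *Tshz3* had 109.8, 94.0 and 104 CPM in the controls and 107, 109 and 107 CPM with LiCl. The LiCl samples lay within the range of the controls. Its log2 fold change was 0.07, SE 0.06 and adjusted p = 0.34, with a 95% interval from -0.06 to 0.21, so a rise of the size seen for *Tbx3* lies inside it. The log2 ratio of *Tshz2* to *Tshz3* was 1.08 ± 0.04 in the controls and 0.72 ± 0.09 with LiCl (SD, n = 3), with a difference of -0.36 (SE 0.06) and no overlap between the groups. *Tshz1*, the remaining gene of the family, rose from 87.2 ± 4.52 to 109 ± 3.41 CPM (SD, n = 3, log2 fold change 0.33, SE 0.05, adjusted p = 0.0011). The family of 3 thus had 1 gene higher, 1 lower and 1 without a call.

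*Sox9* (ENSMUSG00000000567) encodes an HMG box factor of the ureteric mesenchyme that is also made in other cells, such as chondrocytes and the tips of the ureteric tree. It had 217, 215 and 218 CPM in the controls and 183, 190.2 and 174 CPM with LiCl. The controls were nearly identical, and all LiCl samples lay below them. The mean fell from 217 ± 1.58 to 182 ± 8.18 CPM (SD, n = 3, log2 fold change -0.25, SE 0.05, adjusted p = 0.0024). Without LiCl replicates 1 and 3 it was -0.18 (adjusted p = 0.11), and it passed in the other 14 alternatives. Cartilage markers summed to 352 to 379 CPM in the controls and 277 to 330 CPM with LiCl over 6 genes, lower in every LiCl sample. Of these, *Acan*, *Matn1*, *Col10a1* and *Cnmd* stood at 0.30 CPM or less. *Col2a1* did not pass and its groups overlapped (238 and 220 CPM, log2 fold change -0.11, SE 0.08, adjusted p = 0.30). *Col9a1* was lower (127 and 75.1 CPM, log2 fold change -0.75, SE 0.05, adjusted p = 5.9e-06). The part of the cartilage markers in the value of *Sox9* was not tested.

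*Tcf21* (ENSMUSG00000045680) encodes a basic helix-loop-helix factor of mesenchymal cells in kidney, lung and other organs. It had 277, 264 and 268 CPM in the controls and 227, 223 and 215 CPM with LiCl. The groups were clearly separate. The mean fell from 269.5 ± 6.67 to 222 ± 6.11 CPM (SD, n = 3, log2 fold change -0.28, SE 0.04, adjusted p = 0.00086). *Gata6* (ENSMUSG00000005836) encodes a GATA zinc finger factor of mesodermal and endodermal tissues with a known role in smooth muscle. It had 112, 115 and 111 CPM in the controls and 98.5, 89.5 and 102 CPM with LiCl. All LiCl samples were below the controls. The mean fell from 113 ± 2.42 to 96.6 ± 6.41 CPM (SD, n = 3, log2 fold change -0.22, SE 0.06, adjusted p = 0.012). Both genes passed in all 15 alternatives. In glmTreat, which asks for a change beyond 1 on the log2 scale, 0 of the 8 genes passed. Within single libraries, the log2 ratio to *Tbx18* counts was higher with LiCl by 0.30 (SE 0.05) for *Tcf21*, 0.33 (SE 0.08) for *Sox9* and 0.36 (SE 0.08) for *Gata6*.

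**Figure D3:**
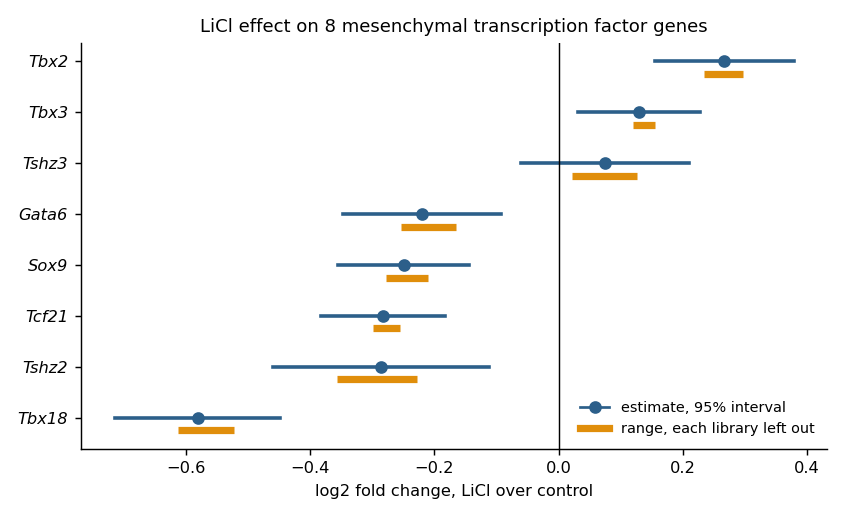
Log2 fold change of LiCl over control for the 8 genes, with the 95% interval of the edgeR fit (blue) and the range when each of the 6 libraries was left out in turn (orange). The intervals exclude 0 for all genes but *Tshz3*, and that of *Tbx18*, from -0.71 to -0.45, does not reach the interval of any other gene except *Tshz2*.

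The levels of the genes were compared as FPKM (here counts divided by a size factor of the library and by gene length). In the controls *Tcf21* had the highest level, at 113 ± 2.07 FPKM, followed by *Tbx18* at 77.2 ± 4.86 (SD, n = 3). *Sox9*, *Tbx2* and *Tbx3* came next at 51.9 ± 0.400, 51.6 ± 2.05 and 49.1 ± 1.27 FPKM. The ranges of *Sox9* and *Tbx2*, and of *Tbx2* and *Tbx3*, overlapped, so these neighbours were not apart beyond their spread. *Tshz2* followed at 27.6 ± 2.50 FPKM, and *Tshz3* and *Gata6* closed the order at 18.6 ± 1.33 and 17.1 ± 0.439 FPKM, again with overlapping ranges. With LiCl, *Tcf21* remained first, at 94.4 ± 2.46 FPKM, but *Tbx18* moved down in the order. *Tbx2* at 62.8 ± 2.54 FPKM and *Tbx3* at 54.4 ± 1.18 FPKM now stood above it, although the ranges of *Tbx3* and *Tbx18* (52.2 ± 2.31 FPKM) overlapped. *Sox9* stood at 44.1 ± 1.88, *Tshz2* at 22.9 ± 1.57, *Tshz3* at 19.8 ± 0.126 and *Gata6* at 14.9 ± 1.02 FPKM, each apart from its neighbours.

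**Figure D4:**
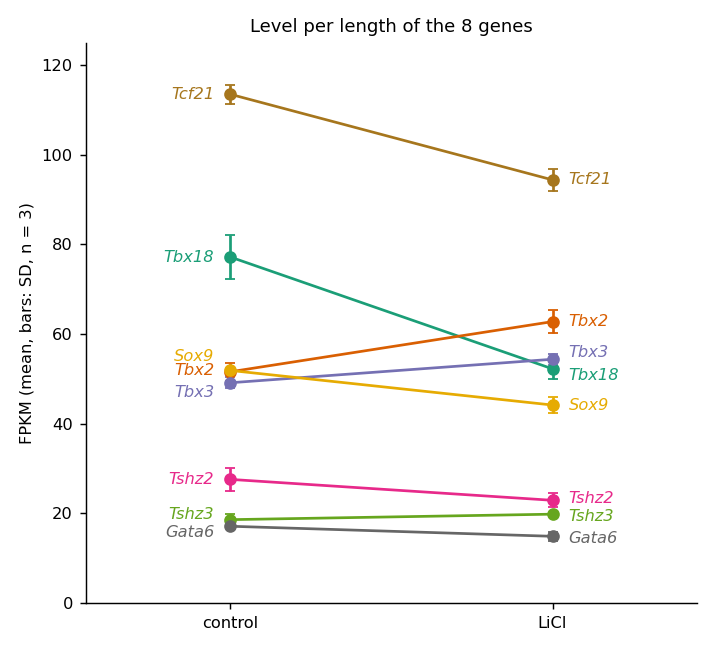
Mean FPKM of the 8 genes in control and LiCl samples (bars: SD, n = 3), with lines joining the group means of a gene. *Tbx18* drops below *Tbx2* and into the range of *Tbx3*, from 77.2 to 52.2 FPKM, while *Tcf21* stays on top.

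The sums of mesenchyme and epithelium markers were both lower with LiCl, so the 8 genes were also set against the mean log2 CPM of the 12 mesenchyme markers in the same library. On this scale *Tbx18* was lower by a log2 difference of -0.36 (SE 0.08), and *Tbx2*, *Tbx3* and *Tshz3* were higher by 0.49 (SE 0.07), 0.35 (SE 0.03) and 0.30 (SE 0.04), each without overlap between the groups (two-sided exact permutation p = 0.1, the smallest possible, 0.2 after adjustment over the 8 genes). For *Tshz2*, *Sox9*, *Tcf21* and *Gata6* the groups overlapped, with log2 differences of -0.062, -0.030, -0.063 and -0.00086. Of the 5 lower genes, *Tbx18* thus was the one whose groups stayed apart on this scale. The reference itself was uneven: 3 of its 12 markers were higher and 5 lower, from -0.99 for *Twist1* to 0.99 for *Thy1*, and another choice of markers shifts all 8 values by the same amount. Against the 12 epithelium markers, of which 9 were lower and 1 higher, all 8 differences were larger in the positive direction, and that of *Tbx18* was -0.063.

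The relatives of these genes gave a mixed picture. Of the 17 T-box genes, 11 were tested, 4 were higher and 2 lower. *Tbx20* fell from 9.86 ± 3.01 to 4.55 ± 1.38 CPM (SD, n = 3, log2 fold change -1.12, SE 0.26, adjusted p = 0.0079). *Tbx1* and *Tbx5* rose from low levels, *Tbx1* from 1.84 to 3.65 CPM (log2 fold change 0.99, adjusted p = 0.012) and *Tbx5* from 1.42 to 2.26 CPM (0.67, adjusted p = 0.041). *Mga*, *T*, *Tbx4*, *Tbx6* and *Tbx15* did not pass. Of the 3 SOXE genes only *Sox9* passed, with log2 fold changes of -0.05 for *Sox10* and 0.20 for *Sox8*. Of 5 tested GATA genes, *Gata6* and *Gata3* (-0.18, SE 0.05, adjusted p = 0.017) were lower. *Gata2*, the most abundant of them by counts, was at 572, 569 and 557 CPM in the controls and 547, 539 and 527 CPM with LiCl (log2 fold change -0.08, SE 0.04, adjusted p = 0.15), and *Gata5* had -0.18 (adjusted p = 0.086) and *Gata4* 0.68 (adjusted p = 0.54). Among 9 tested basic helix-loop-helix genes related to *Tcf21*, itself included, 5 were lower and 0 higher. *Tcf24* fell from 4.16 to 0.623 CPM (log2 fold change -2.74, SE 0.20) and *Tcf15*, a gene of somites, fell by 1.83 on the log2 scale (SE 0.24), where the value of *Tcf21* was -0.28. The others of this group were *Twist1* at -0.99 and *Scx* at -0.46, which fell, and *Twist2*, *Hand1*, *Hand2* and *Msc*, which did not pass.

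Known targets of TBX2 and TBX3, genes they repress in other embryonic tissues or cells, were listed beside them. Of the 8 tested targets, 3 were higher and 5 lower, with a median log2 fold change of -0.75 against -0.01 for all tested genes. *Gja5*, a connexin gene, had 13.2, 19.1 and 16.1 CPM in the controls and 4.54, 5.58 and 4.61 CPM with LiCl (log2 fold change -1.72, SE 0.15, adjusted p = 3.4e-05), and *Ccn4* fell by 0.92 on the log2 scale (SE 0.15). The 3 higher targets were *Cdkn1a* and *Cdkn1b*, which encode cell cycle inhibitors, and *Gja1*, another connexin gene. *Cdkn1a* had 25.8, 26.8 and 18.3 CPM in the controls and 60.5, 55.2 and 60.1 CPM with LiCl (log2 fold change 1.31, SE 0.12), and *Cdkn1b* and *Gja1* rose by 0.59 and 0.45 on the log2 scale (SE 0.05 each). *Cdkn2a*, a further cell cycle inhibitor gene of the list, and *Nppa* were not tested. Of 8 tested genes that SOX9 activates in cartilage, 5 were lower and 1 higher, with a median of -0.35. This list shares *Col2a1*, *Col9a1* and *Acan* with the cartilage markers above. *Hapln1*, which encodes a link protein of the matrix, fell from 29.8 to 11.8 CPM (log2 fold change -1.34, SE 0.07), and *Col11a2* fell by 0.80 on the log2 scale. *Matn3* rose by 1.33, but only from 0.245 to 0.615 CPM. *Acan* and *Comp* were not tested. These lists come from other tissues, and whether the factors act on them in the ureter was not tested.

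TBX18 is known to keep the kidney mesenchyme programme out of the ureter. Of 14 kidney mesenchyme genes, 2 were higher, 5 lower and 7 without a call, with a median log2 fold change of -0.10. *Crym* and *Cited1* fell by 1.31 and 1.29 on the log2 scale (SE 0.20 and 0.18), each from under 10 CPM. *Wt1* had 15.2, 13.3 and 17.2 CPM in the controls and 23.1, 27.2 and 21.4 CPM with LiCl (log2 fold change 0.65, SE 0.12, adjusted p = 0.0018), and *Hoxd11* rose by 0.24 (SE 0.06). The list moved in both directions.

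Other transcription factors and cofactors of the ureteric mesenchyme and its smooth muscle programme were listed as well. Of 20 tested, 3 were higher, 5 lower and 12 without a call, with a median of -0.10. *Meis2*, a TALE homeobox gene, had 340, 352 and 350 CPM in the controls and 210, 218 and 201 CPM with LiCl (log2 fold change -0.73, SE 0.05, adjusted p = 4.5e-06), beside -0.58 for *Tbx18*. *Nkx3-2* fell from 4.83 to 2.12 CPM (-1.19, SE 0.23), while *Osr2* rose from 7.56 to 16.2 CPM (1.10, SE 0.13) and *Snai1* by 0.36 (SE 0.07). *Foxf1*, a forkhead gene downstream of SHH, stood at 45.5 ± 1.15 and 48.1 ± 2.18 CPM (log2 fold change 0.08, adjusted p = 0.25). *Myocd*, which encodes the main activator of smooth muscle genes, stood at 14.0 ± 4.23 and 14.2 ± 3.77 CPM (0.03, SE 0.23, adjusted p = 0.94).

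Genes of signaling pathways of the ureter were listed by pathway, each read in the whole explant. Of 12 genes of the WNT pathway, 5 were higher and 6 lower. *Axin2*, a feedback gene of canonical WNT signaling, had 74.7, 71.0 and 69.5 CPM in the controls and 136, 134 and 138 CPM with LiCl (log2 fold change 0.92, SE 0.05), and *Tcf7* rose by 0.96 (SE 0.05). After 2 days with LiCl, the paper's in situ hybridization showed ectopic *Axin2* in the epithelium, whereas that of the mesenchyme seemed little changed. *Shisa2* and *Sfrp2*, both encoding inhibitors of the pathway, fell by 1.89 and 0.71 on the log2 scale (SE 0.09 and 0.04). Of 11 hedgehog pathway genes, 1 was higher and 5 lower. *Hhip*, a feedback inhibitor, fell by 0.78 and the coreceptor gene *Boc* by 0.49, while the effector gene *Gli1* rose by 0.28 (SE 0.07, adjusted p = 0.0096). *Ptch1*, the receptor and target of the pathway, did not pass (log2 fold change 0.10, SE 0.07, adjusted p = 0.32). Of 16 BMP pathway genes, 3 were higher, 2 lower and 11 without a call. *Bmp4* had 157, 172 and 161 CPM in the controls and 141, 139 and 139 CPM with LiCl (log2 fold change -0.22, SE 0.05, adjusted p = 0.0049), beside -0.22 for *Gata6* and -0.25 for *Sox9*. *Smad6* fell by 0.26, *Msx1* and *Id4* rose by 0.99 and 0.49, and *Id2* had -0.08 (adjusted p = 0.21). Of 12 retinoic acid pathway genes, 4 were higher and 4 lower, with *Aldh1a3* and *Aldh1a1* at 0.86 and 0.73, *Ecm1* and *Rdh10* at -1.23 and -1.11, and *Aldh1a2* at -0.13 (adjusted p = 0.16).

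Genes known from smooth muscle and from fibrocytes of the outer mesenchyme were mostly lower, where 22.4% of all tested genes were lower and 21.1% higher. The explants were younger than the stage at which the paper places smooth muscle differentiation. Whether these genes mark differentiated cells here was not tested. Of 14 smooth muscle contractile genes, 9 were lower, 1 higher and 4 without a call, with a median log2 fold change of -0.49. *Actg2* fell from 5.74 to 2.09 CPM (-1.45, SE 0.24) and *Cnn1* from 8.24 to 3.07 CPM (-1.43, SE 0.16), and *Synm*, an intermediate filament gene, rose by 0.78 (SE 0.12). Of 12 fibrocyte and matrix genes of the outer mesenchyme, 10 were lower and 0 higher, with a median of -0.62. *Ogn* fell from 9.82 to 1.19 CPM (-3.03, SE 0.23) and *Dpt* from 1.52 to 0.373 CPM (adjusted p = 0.00065). The sums of mesenchyme and epithelium markers were lower in the same samples, and their part in these counts was not tested.

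**Figure D5:**
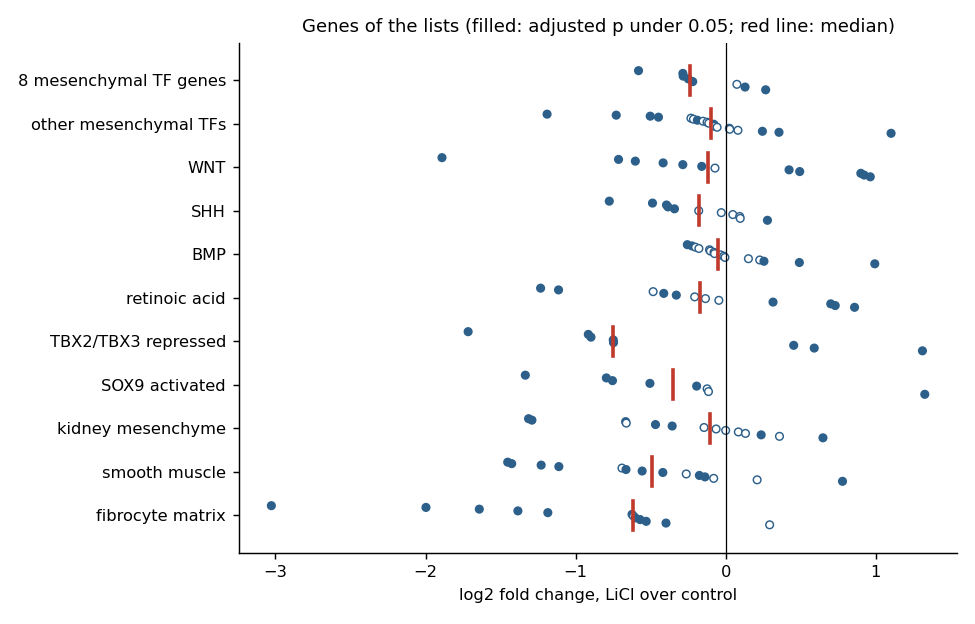
Log2 fold change of LiCl over control for each tested gene of 11 lists, 1 point per gene, filled where the adjusted p was under 0.05, with a red line at the median of the list. The 8 transcription factor genes lie between -0.58 and 0.27, whereas the fibrocyte matrix list reaches down to -3.03 and the lists of TBX2 or TBX3 and SOX9 targets extend beyond 1.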

How the data were processed

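Total RNA of the explants was sequenced as stranded polyA libraries. The authors deposited raw counts per Ensembl gene, made with featureCounts after read filtering and alignment to GRCm39. The paper names HISAT2 as the aligner, whereas the submitters' processing notes name fastp 0.23, STAR 2.7, featureCounts 2.0 and DESeq2 1.40. The annotation release and the strand setting of the counting are not given in the sources used here. Deposited FPKM values for each sample equal the counts divided by size factors and gene length. Gene symbols came from GENCODE vM21 and matched 52073 of 56748 identifiers, and sequences and gene neighbours came from RefSeq for GRCm38.p6, an older build than that of the counts.

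The main test was the quasi-likelihood F test of edgeR 4.0.16 (R 4.3.3) after filterByExpr and TMM, adjusted by Benjamini-Hochberg over 18188 genes, and the SE followed from its coefficient and F value. Ratios between genes used counts plus 0.5 and two-sided exact permutation tests. As alternatives, the scaling (RLE, library size only), the tool (DESeq2 1.42.0, glmTreat, limma 3.58.1 on log2(FPKM + 1) or log2(FPKM + 0.1) above a mean FPKM of 0.5) and the filter (none, or 10 counts in each library) were changed, the replicate number was added as a block, and each library was left out. Leaving out both LiCl libraries with skeletal muscle counts was added after the data were seen. The 15 alternatives counted for a gene leave out glmTreat. The fit was tested on simulated data.

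The 8 genes and all lists were chosen with earlier results of these data known. Named are the 8 genes, up to 2 called genes per list and direction, the remaining members of the gene families, *Bmp4*, *Foxf1*, *Ptch1*, *Axin2*, *Id2*, *Aldh1a2* and *Myocd*, tested genes next to the 8, and the 3 genes with the most similar pattern. Other genes were named after their values were seen. No library was a copy of another: within a group, pairs differed by chi-square values per degree of freedom of 5.93 to 14.5.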

Additional observations from a re-analysis of the deposited data

How the results depend on the processing

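No called value changed its direction. The count of the 8 genes that were higher, 2, was 1 with scaling by library size only (18.1% of all tested genes were higher there), 1 with the replicate block (18.6%), 1 without LiCl replicates 1 and 3 (10.4%), 1 to 2 with each library left out (16.7% to 19.6%), and 0 against a log2 fold change of 1 (glmTreat, 0.946%). The count of lower genes, 5, was 4 to 5 with each library left out (17.0% to 19.7% of all tested genes were lower), 3 without LiCl replicates 1 and 3 (10.9%), and 0 with glmTreat (0.891%). The split of 2 higher to 5 lower was thus 1 to 5 by library size only, where 24.9% of all tested genes were lower and which shifted the median of all tested genes to -0.05. By glmTreat each of the 7 called genes, at -0.58, 0.27, 0.13, -0.29, -0.25, -0.28 and -0.22, had an adjusted p of 1, since this test asks for a change beyond 1. *Tbx3* lost its call by library size only (0.093), under the block (0.13, adjusted p = 0.088), without LiCl replicates 1 and 3 (0.14), and in 4 of the 6 fits without 1 library, which gave 0.12 to 0.16. *Tshz2* gave -0.36 to -0.23 without 1 library and lost its call without control replicate 1 or 3 and without LiCl replicates 1 and 3 (-0.20), where *Sox9* also lost it (-0.18). The fit without LiCl replicates 1 and 3 takes its spread from the controls alone, fits with fewer samples have less power by construction, and the cause of the other losses was not tested.

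In the other lists without marker lists, 26 genes were higher and 62 lower, and with glmTreat 0 and 7. Past a log2 fold change of 1 there were 3 and 20, with no filter 5 higher, on log2(FPKM + 1) 1 and 9, where the pseudocount shrinks low genes, and with glmTreat 0 and 7. Against the median in place of the mean of the mesenchyme markers, the differences were -0.46 for *Tbx18*, 0.39 for *Tbx2*, 0.25 for *Tbx3*, -0.16 for *Tshz2*, 0.20 for *Tshz3*, -0.13 for *Sox9* and -0.16 for *Tcf21*. Against the epithelium markers they were -0.063, 0.78, 0.65, 0.23, 0.59, 0.27 and 0.23 in that order, and 0.29 for *Gata6*. The replicate numbers did not pair the samples, with correlations of deviations of 0.02, -0.12 and 0.11, and under the block no other call of the 8 genes changed. Over all tested genes the median SE of the log2 fold change was 0.095, and with 3 samples a group exact permutation tests cannot go below p = 0.1.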

Other observations

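The gene next to each of the 8 on either side of it, in RefSeq order, was read where it was tested, and *Tbx18* and *Tshz3* had no such neighbour. Noncoding genes that overlap a transcription factor gene moved with it in 2 cases. *Gata6os*, which overlaps *Gata6*, went from 25.6 to 19.1 CPM (log2 fold change -0.43, SE 0.08, adjusted p = 0.0017), and *Gm10824*, which overlaps *Tcf21*, from 26.3 to 17.9 CPM (log2 fold change -0.55, SE 0.07, adjusted p = 0.00033). In both, the noncoding gene fell by more on the log2 scale than the gene it overlaps, a difference that was not tested. *Tbx3* rose, but *Tbx3os2*, the next gene on one side of it, fell from 9.67 to 7.16 CPM (log2 fold change -0.43, SE 0.10, adjusted p = 0.0072). *Tbx3os1*, which overlaps *Tbx3* and was chosen after its values were seen, stood at 120 and 104 CPM (-0.21, SE 0.10, adjusted p = 0.12). *Gm34294*, next to *Tshz2*, fell by 0.62 on the log2 scale (adjusted p = 0.042). *Tbx4*, the coding neighbour of *Tbx2*, had a log2 fold change of 0.03 (adjusted p = 0.90), and *2610027K06Rik* on its other side one of -0.09 (adjusted p = 0.53). Further out, and chosen after their values were seen, the coding genes *Rbbp8* near *Gata6* (log2 fold change 0.29, SE 0.06, adjusted p = 0.0025) and *Cep162* near *Tbx18* (0.27, SE 0.06, adjusted p = 0.0047) rose where the transcription factor gene fell. The coding gene *Tbx5*, also further out, rose as its neighbour *Tbx3* did (0.67, SE 0.23, adjusted p = 0.041), from 1.42 to 2.26 CPM. *Gm16064* next to *Tbx3* and *BC006965* next to *Sox9* were near 1 CPM and did not pass. Since the strand setting of the counting is not known, reads of overlapping genes on opposite strands cannot be told apart.

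Over the 10684 tested genes that averaged 10 CPM or more, the pattern over the 6 samples most like that of a given gene was taken as the smallest root mean square difference of centred log2 CPM. The nearest genes were *Aacs*, *Prss8* and *Herc3* for *Tbx18* (0.020, 0.031 and 0.035), *Zfp219*, *Lsm8* and *Grpel1* for *Tbx2*, and *Gm20186*, *Glce* and *Trappc13* for *Tbx3*. They were *Il1rap*, *Samd4* and *Ston1* for *Tshz2*, *Zfp26*, *Fam172a* and *Col4a3bp* for *Tshz3*, *Tgfbi*, *Maco1* and *Pomk* for *Sox9*, *Oat*, *Pi4k2b* and *Vav2* for *Tcf21*, and *Sdhd*, *Hebp1* and *Tnfrsf22* for *Gata6*. The 8 genes themselves were left out of this search, so none of them could appear among these 24. Within the 8, *Sox9* and *Tcf21* had the most similar patterns, at 0.037, followed by *Tbx3* and *Tshz3* at 0.059, and *Tbx18* and *Tbx2* the least similar, at 0.436. *Tbx2* and *Tbx3* stood at 0.096 from each other. All distances share the same 6 libraries and are given as descriptions.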
